A study of Mus musculus with 33 samples.

Results

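Microglia of 10-day-old (P10) mice were compared in 8 RNA-seq libraries of sorted cells, 4 from the corpus callosum (CC) and 4 from the cerebellum (Cb), out of 33 libraries in the series. These 8 were chosen by region and age alone, from the sample names. All animals were untreated wildtype C57BL/6J mice kept under specific-pathogen-free conditions, and in each region libraries 1 and 2 came from females and libraries 3 and 4 from males. Cells were isolated after perfusion as CD45+, CD11b+, Gr1- events by flow cytometry, a gate that does not separate parenchymal microglia from the macrophages of the brain's borders. The series also holds CC and Cb libraries of P7 (3 each) and P42 (4 each), and cortical (Cx) libraries of all 3 ages, of which 4 are P10. Nothing in the labels says that the libraries of a group came from separate animals, so the tests measure the spread between these libraries, part of which may be technical.

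The brain's own macrophages, the microglia, depend on signalling through the CSF1 receptor and on TGF-beta. They survey the tissue through purinergic and fractalkine receptors, and clear debris, synapses and surplus cells through phagocytic receptors and lysosomal enzymes. In the early postnatal brain, rounded and phagocytically active microglia gather in developing white matter tracts such as the corpus callosum. The study reports amoeboid microglia in both CC and Cb at P7, and similar expression profiles in both at P7 and P10. The cerebellum also holds granule neurons that are still being born. The comparison asks which genes the microglia of a developing tract and of the cerebellum express at different levels at the same age.

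Gene counts ranged from 31762604 to 34651972 per CC library and from 34745241 to 58065163 per Cb library. CC libraries 3 and 4, the male ones, stood apart: 16146 and 16528 genes had at least 1 read in them, against 17510 to 18337 in the other 6, and their mean distance to the other CC libraries was 134 and 128, against 109 and 107 for CC libraries 1 and 2 and 51.7 to 54.4 within Cb (Euclidean distance of log2 CPM over 10086 genes, where CPM is the usual depth-scaled unit, after TMM scaling). The CC libraries also varied more gene by gene, with a median SD of 0.359 log2 units against 0.220 in Cb and a larger SD in CC for 77.1% of these genes. Sex-linked genes matched the labelled sex in 33 of 33 libraries, no library duplicated another, and reads of mitochondrial genes made up 0.654% to 0.984% of the 8 libraries. Values without CC libraries 3 and 4 are given beside the results below.

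Of 20917 genes tested, 17 passed an adjusted p of 0.01 with at least 1 log2 unit of difference (0.0813%), 16 lower (0.0765%) and 1 higher (0.00478%) in CC (edgeR quasi-likelihood test with Benjamini-Hochberg adjustment over all genes, n = 4 libraries a region). At an adjusted p of 0.05 without a limit on the fold change, 311 genes passed (1.49%), 98 higher (0.469%) and 213 lower (1.02%) in CC, with a median log2 fold change of 0.49 among the higher and -0.75 among the lower ones. The first limit is called the stricter and the second the looser limit in what follows. The counts depended on the tool and the libraries. The stricter count was 89 by limma-voom (6 higher in CC), 187 by DESeq2 (45 higher) and 2 in a fit of the 8 libraries alone, and the looser count 828, 998 and 51 in the same order, and 107 without Cb library 4. The stricter count was 7 without CC libraries 3 and 4, of which 4 were among the 17, and fits that each lacked 1 library gave from 10 genes (without Cb library 2) to 30 (without CC library 2). As whole profiles, CC and Cb libraries lay 98.5 apart on average, less than CC libraries lay from each other (119.5) and more than Cb libraries did (53.4). The ratio of between-region to within-region distance was 1.14 (exact permutation test over the libraries, one-sided p = 0.0286, the smallest it allows). Without any 1 Cb library it was 1.00 to 1.02 (exact permutation p = 0.229 to 0.314).

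**Figure D1:**
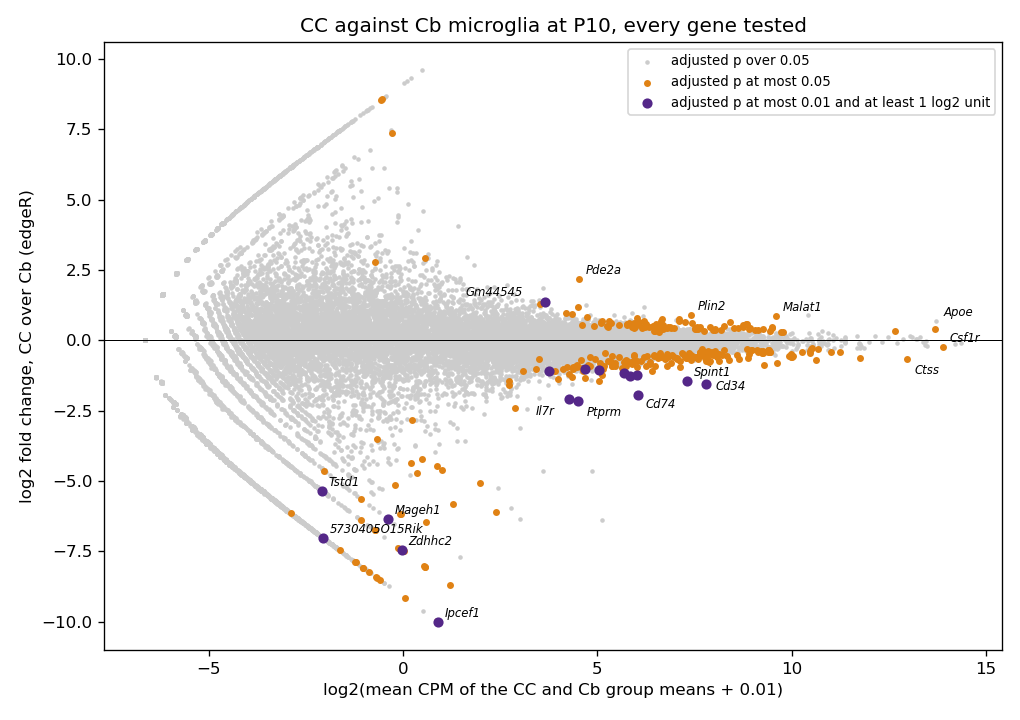
Log2 fold change of CC over Cb at P10 (vertical axis) against log2 mean CPM (horizontal axis) for each of the 20917 genes tested, with grey points not passing, orange points passing the looser and purple points the stricter limit. Purple points lie below 0 for 16 genes and above 0 for Gm44545, and the 5 lowest sit at mean levels where CC has almost no reads.

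The clearest difference was in Cd34, a sialomucin of the cell surface known from blood progenitors and endothelium. The gene lies on chromosome 1, 194938819 to 194961279 (GRCm38). Its level was 118, 108, 111 and 114 CPM in CC libraries 1 to 4 and 339.9, 309, 335 and 333 CPM in the Cb libraries, a log2 fold change of -1.55 ± 0.11 (SE, edgeR adjusted p = 5.28e-10). Both sets were tight and far apart, and Cd34 passed the stricter limit in 20 of 20 alternative settings, among them the one without CC libraries 3 and 4. Here and below, in bulk RNA of sorted cells, fewer cells that express a gene and less of its RNA per cell cannot be told apart. The summed level of 18 endothelial and mural markers, which do not include Cd34, was 31.0 to 63.0 CPM in CC and 53.8 to 80.1 CPM in Cb, with Pecam1 at a mean of 37.1 and 63.1 CPM, and their part in the Cd34 difference was not tested. An antisense gene, Gm16897, overlaps Cd34 exons. The library kit does not mark strand and the counting discarded reads assigned to more than 1 gene. Reads of the shared stretch may therefore be missing from the Cd34 count, and the strand setting of the counting is not given.

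Spint1 encodes a Kunitz-type inhibitor on the cell surface that restrains serine proteases such as matriptase and the activator of hepatocyte growth factor. The gene (chromosome 2, 119237362 to 119249527) was lower in CC, at 89.01, 74.5, 58.6 and 118 CPM, than in Cb, at 243, 199, 232 and 248 CPM, a log2 fold change of -1.44 ± 0.19 (edgeR adjusted p = 9.67e-05). CC library 4 was the highest of its group and still far below the lowest Cb library. Spint1 was the 1 member that passed the looser limit among 24 tested genes of serine proteases, their inhibitors and matrix proteases, against 1.49% of all genes and 2.47% of those averaging 1 CPM or more. Abundant members of that list did not pass, with Serpine2 at 0.02 log2 units, Timp2 at 0.02 and Serpinf1 at -0.45 (edgeR adjusted p = 0.974, 0.977 and 0.0831). For Serpinf1 all CC libraries lay below all Cb libraries.

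Because Cd34 and Spint1 were among the 3 genes with the lowest adjusted p of the 17 past the stricter limit, their promoters are shown, from 250 bases before to 50 after the RefSeq start on GRCm38.p6, 5′ to 3′ on the plus strand, which is the strand of both genes. Capitals mark matches, on either strand, to the GC box GGGCGG, the CCAAT box and the AP-1 motif TGANTCA. The 2 other motifs searched in these windows that are tied to macrophages, the PU.1 motif GAGGAAGT and the core of the interferon-stimulated response element, had no match, which says only that those letters are not there.
Cd34, chr1:194938571-194938870: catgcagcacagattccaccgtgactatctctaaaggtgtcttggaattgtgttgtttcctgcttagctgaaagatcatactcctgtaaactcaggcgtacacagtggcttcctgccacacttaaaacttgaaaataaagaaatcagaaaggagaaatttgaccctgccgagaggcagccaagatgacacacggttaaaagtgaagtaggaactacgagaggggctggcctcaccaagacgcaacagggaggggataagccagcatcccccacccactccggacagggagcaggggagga
Spint1, chr2:119237110-119237409: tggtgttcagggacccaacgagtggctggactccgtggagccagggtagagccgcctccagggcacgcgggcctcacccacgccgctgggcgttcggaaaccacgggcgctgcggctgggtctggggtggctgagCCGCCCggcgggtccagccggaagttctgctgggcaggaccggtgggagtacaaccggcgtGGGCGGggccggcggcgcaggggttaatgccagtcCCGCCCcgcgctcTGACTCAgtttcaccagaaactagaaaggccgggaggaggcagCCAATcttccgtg
The Spint1 window holds 3 GC boxes, 1 CCAAT box and 1 AP-1 match that begins 6 bases before the start, and the Cd34 window holds no match to any motif searched. Among 32851 mouse promoters of the same length, 35.7% hold a GC box, 37.4% a CCAAT box, 7.81% an AP-1 match, 3.20% a PU.1 match and 3.44% the interferon element core. A match is a description of the letters and was not tested for binding.

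Cd74, the invariant chain that guides MHC class II molecules to the endosome, had 30.8, 25.05, 26.9 and 25.1 CPM in CC and 98.6, 111, 87.4 and 119 CPM in Cb, a difference of -1.95 ± 0.32 log2 units (edgeR adjusted p = 0.00124). No CC library came near the lowest Cb library. H2-DMa, a subunit of the chaperone that loads peptide onto class II molecules, was lower in CC as well, at 109.9, 119, 140.3 and 144 against 189, 191, 232 and 226 CPM (-0.71 ± 0.10 log2 units, edgeR adjusted p = 0.000335). These were the 2 of 10 tested class II genes past the looser limit, against 1.49% of all genes and 2.47% of those averaging 1 CPM or more, and the median of the list was -0.09 log2 units against 0 over all genes. H2-DMb1, the partner chain of H2-DMa, had a mean of 73.8 and 70.02 CPM (edgeR adjusted p = 0.899). The summed level of 13 border macrophage markers was 862 to 1072 CPM in CC and 884 to 990.2 CPM in Cb, ranges that overlapped. Most of that sum came from Gas6, at means of 597 CPM in CC and 648 CPM in Cb. Lower members went both ways, with means of 5.01 and 0.292 CPM for Cd163, 3.83 and 1.46 for Lyve1, and 1.37 and 4.58 for F13a1. These means hide uneven CC libraries. Over CC libraries 1 to 4, Cd163 had 345, 320, 0 and 0 counts, Lyve1 172, 272, 63 and 0, and F13a1 0, 177, 1 and 0. Mrc1, also on this list, had means of 188 and 120 CPM. Its CC libraries lay above its Cb libraries without overlap, as for 3.67% of all genes. Of the 13, 5 had a negative log2 fold change and 0 passed the looser limit, where 1.49% of all genes passed.

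Il7r (chromosome 15, 9506161 to 9529876), the alpha chain of the interleukin-7 receptor, reached 6.61, 5.40, 11.6 and 5.86 CPM in CC and 17.1, 37.04, 35.4 and 34.9 CPM in Cb (-2.08 ± 0.35 log2 units, edgeR adjusted p = 0.0016). Cb library 1 lay well below the other Cb libraries but above the highest CC library. Ptprm (chromosome 17, 66666848 to 67354459), a receptor-type tyrosine phosphatase that also mediates cell adhesion, was at 10.3, 7.40, 12.5 and 3.20 CPM in CC and 39.2, 35.2, 35.4 and 37.8 CPM in Cb (-2.14 ± 0.29 log2 units, edgeR adjusted p = 0.000131). The Cb values were nearly equal, whereas CC library 4 had less than the other CC libraries. Another annotated gene, AC139750.1, overlaps Ptprm exons. Lrrc3, a gene of a leucine-rich repeat protein, was at 28.6, 45.1, 28.1 and 32.6 against 84.5, 88.7, 63.6 and 86.2 CPM (-1.27 ± 0.16 log2 units, edgeR adjusted p = 9.67e-05), again without overlap. Ptprm, Lrrc3, Spint1 and Cd34 were the 4 genes of the 17 that still passed the stricter limit without CC libraries 3 and 4. Cd74 and Il7r did not pass it there, at -1.90 and -2.38 log2 units (adjusted p = 0.0333 and 0.012).

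Hmgcs1 (chromosome 13, 119690462 to 119708086) encodes the cytosolic HMG-CoA synthase, an early step of cholesterol synthesis, and was at 28.5, 38.4, 37.1 and 22.3 CPM in CC and 83.7, 84.9, 46.4 and 69.8 CPM in Cb. The difference was -1.17 ± 0.18 log2 units (edgeR adjusted p = 0.000625). The lowest Cb library, 3, lay nearest to the CC libraries. Insig1, whose product holds the sterol-sensing machinery in the endoplasmic reticulum and which was singled out after its values were seen, passed the looser limit at 8.45, 7.09, 7.30 and 4.99 against 14.01, 13.5, 14.2 and 15.2 CPM (-1.03 ± 0.25 log2 units, edgeR adjusted p = 0.0302). Sqle, the squalene epoxidase, did not pass, with 8.07, 10.99, 8.10 and 14.2 CPM in CC and 25.4, 35.8, 20.9 and 38.3 CPM in Cb (edgeR adjusted p = 0.139). All 4 CC libraries were below all 4 Cb libraries for each of these 3 genes, which were named for being lower in CC, so that nothing is read from it. Acly, which makes the cytosolic acetyl-CoA that sterol and fatty acid synthesis start from, was chosen after its values were seen and was lower in CC too (-0.60 log2 units, edgeR adjusted p = 0.0201). Hmgcs1 kept the stricter call whichever library was left out, whereas Insig1 kept the looser one in 1 and Acly in 3 of 8 such fits, both with their highest adjusted p without Cb library 4 (0.103 and 0.124). Without CC libraries 3 and 4, Hmgcs1 (-1.09 log2 units, edgeR adjusted p = 0.0181) no longer passed the stricter limit. Insig1 (-0.88 log2 units, edgeR adjusted p = 0.239) no longer passed the looser one, which Acly kept. An antisense gene, Gm48342, overlaps Hmgcs1 exons, so reads of the shared stretch may be missing from the Hmgcs1 count, as for Cd34.

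The promoters of Hmgcs1 and Insig1 are shown because both genes are textbook targets of SREBP2, the transcription factor that sterols hold back. Both windows are on the plus strand of GRCm38.p6, from RefSeq, with capitals for matches to the sterol element TCACNCCAC, the E-box CACGTG, the CCAAT box and the GC box GGGCGG on either strand.
Hmgcs1, chr13:119690101-119690400: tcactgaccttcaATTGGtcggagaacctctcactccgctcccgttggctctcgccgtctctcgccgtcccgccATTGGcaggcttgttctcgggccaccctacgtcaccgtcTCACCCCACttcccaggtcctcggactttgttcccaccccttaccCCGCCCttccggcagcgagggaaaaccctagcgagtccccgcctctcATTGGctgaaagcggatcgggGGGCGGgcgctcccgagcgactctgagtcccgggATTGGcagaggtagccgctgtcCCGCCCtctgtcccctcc
Insig1, chr5:28071162-28071461: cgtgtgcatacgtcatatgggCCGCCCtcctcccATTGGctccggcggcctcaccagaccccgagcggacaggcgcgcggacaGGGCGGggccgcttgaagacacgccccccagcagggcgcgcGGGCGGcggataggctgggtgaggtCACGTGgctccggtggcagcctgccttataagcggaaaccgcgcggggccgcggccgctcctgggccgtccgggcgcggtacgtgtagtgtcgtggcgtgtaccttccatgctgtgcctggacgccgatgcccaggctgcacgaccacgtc
The Hmgcs1 window holds 1 sterol element beginning 137 bases before the start, 4 CCAAT boxes and 3 GC boxes. The Insig1 window holds no match to TCACNCCAC, 1 E-box beginning 101 bases before the start, 1 CCAAT box and 3 GC boxes. Of all promoters, 1.24% hold the sterol element and 7.15% the E-box.

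Among genes of moderate level, 4 more were lower in CC. Utp23, which encodes a factor for ribosomal RNA processing, was at 9.37, 9.09, 8.10 and 7.97 against 17.4, 20.1, 17.8 and 18.05 CPM (-1.09 ± 0.18 log2 units, edgeR adjusted p = 0.0016). Slfn8, of the Schlafen family, was at 20.4, 25.8, 18.4 and 19.8 against 40.6, 46.5, 32.5 and 57.6 CPM (-1.07 log2 units, edgeR adjusted p = 0.00969), and as a member of a multigene family it may share reads with its relatives. Cnn2, the actin-binding calponin 2, was at 14.3, 19.1, 14.7 and 20.2 against 26.1, 29.8, 37.7 and 43.2 CPM (-1.004 log2 units, edgeR adjusted p = 0.00179). Endod1 had the widest CC spread of the 4, 13.97, 59.7, 54.3 and 27.6 CPM, against 88.01, 90.3, 88.5 and 96.6 CPM in Cb (-1.22 log2 units, edgeR adjusted p = 0.00954). In these 4 genes no CC library reached the lowest Cb library. They were called for a difference in these same libraries, so nothing is read from that. Fits that lacked 1 library cost Slfn8 and Endod1 the stricter call in all but 2 of 8 cases, Cnn2 in 4 and Utp23 in 1. None of the 4 passed the stricter limit without CC libraries 3 and 4 (edgeR adjusted p = 0.0454, 0.149, 0.0215 and 0.049 in the order above). Their log2 fold changes there were -0.99, -0.94, -1.04 and -1.305. An antisense gene, Gm34678, overlaps Utp23 exons, so reads of the shared stretch may be missing from the Utp23 count, as for Cd34.

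Another 5 genes had almost no reads in CC. Ipcef1, whose product binds guanine exchange factors of the cytohesin family, had 0 counts in the 4 CC libraries and 185, 251, 80 and 118 in the Cb libraries, or 5.07, 4.38, 2.33 and 3.05 CPM. Taking 3 counts per library as the limit that a count of 0 allows, Cb was at least 41.5-fold higher (edgeR adjusted p = 0.000389). 5730405O15Rik also had 0 counts in CC and 80 in Cb, at least 5.11-fold higher in Cb by the same limit (edgeR adjusted p = 0.0053). Mageh1, of the MAGE family, had 2 counts in CC and 244 in Cb (ratio 98.3, 95% counting interval 26.9 to 816; edgeR adjusted p = 0.00175). Zdhhc2, a palmitoyltransferase, had 1 count against 287 (ratio 231, interval 41.2 to 9167; edgeR adjusted p = 0.00969), and Tstd1, a sulfurtransferase, 1 against 78 (ratio 62.9, interval 11.0 to 2514; edgeR adjusted p = 0.0069). Such intervals cover counting error only, since amplified reads are not independent molecules. Each of the 5 had reads in every P10 cortical library, 0.135, 1.89, 0.358 and 1.38 CPM for Ipcef1 and 1.24, 1.48, 0.406 and 1.67 CPM for Mageh1. Ipcef1 and Mageh1 kept the stricter call whichever library was left out, Tstd1 and 5730405O15Rik did so in 2 of 8 cases and Zdhhc2 in none. None of the 5 passed it without CC libraries 3 and 4, with an adjusted p of 0.0181 for Ipcef1 and 0.0626 for Mageh1. Exons of Ipcef1, Zdhhc2 and Tstd1 overlap those of Oprm1, Cnot7 and Usf1, and the counting discarded reads assigned to more than 1 gene.

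**Figure D2:**
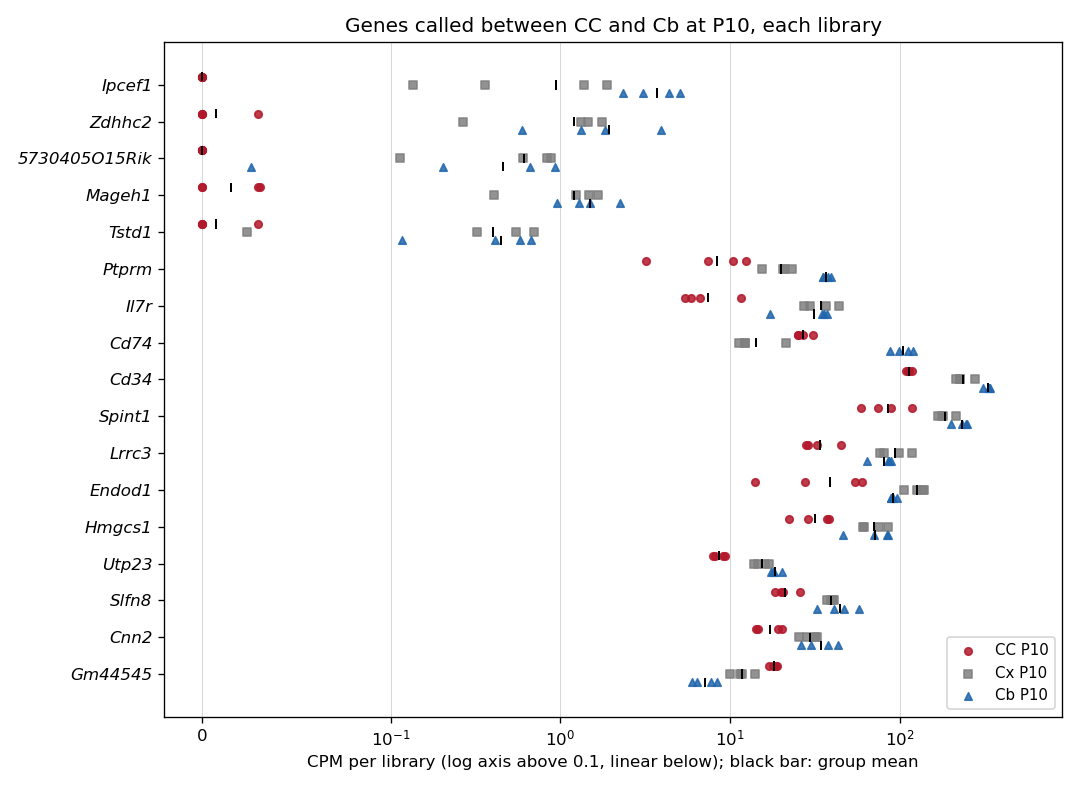
CPM of each P10 library (horizontal axis, logarithmic above 0.1) for the 17 genes past the stricter limit, with CC as red circles, Cx as grey squares, Cb as blue triangles and group means as black bars. Red and blue points do not overlap in any of the genes. All were called for a difference in these same libraries, so nothing is read from the lack of overlap. Over all genes tested, 4.12% had CC below and 3.67% had CC above Cb without overlap. The Cx means lie on the Cb side for most of the 17 genes.

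Gm44545 was the 1 gene past the stricter limit that was higher in CC. It had 17.8, 18.8, 16.9 and 18.7 CPM in CC and 8.31, 6.35, 5.94 and 7.72 CPM in Cb (1.35 ± 0.26 log2 units, edgeR adjusted p = 0.00556), with narrow groups that did not overlap. It is a single-exon transcript on chromosome 7, from 100950817 to 100951562 (GRCm38), within the P2ry6 locus on the opposite strand and outside the P2ry6 exons, and without strand its reads cannot be told apart from those of unspliced P2ry6 RNA. P2ry6, the receptor for UDP that microglia use in phagocytosis, had 617, 668, 558 and 614 against 473, 629, 501 and 611 CPM (edgeR adjusted p = 0.469). The call for Gm44545 was lost in 8 of 8 cases when 1 library was left out, and also without CC libraries 3 and 4 (1.36 log2 units, adjusted p = 0.0362).

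Among genes past the looser limit only, averaging 10 CPM or more and with the regions apart, the 10 with the largest decrease in CC included genes of the surface, of lipids and of transcription. Upk1b, a tetraspanin, was at 13.7, 25.02, 14.4 and 18.04 CPM in CC and 49.2, 49.01, 34.02 and 60.4 CPM in Cb (-1.44 ± 0.33 log2 units, edgeR adjusted p = 0.0201). Spns2, the exporter of sphingosine-1-phosphate, was at 18.1, 6.91, 10.7 and 10.7 against 28.2, 25.6, 25.3 and 28.1 CPM (-1.21 log2 units). Klf2, a zinc finger transcription factor, was at 11.7, 15.7, 20.02 and 16.1 against 29.7, 30.2, 37.2 and 37.4 CPM (-1.08 log2 units). Etnk1, an ethanolamine kinase of phospholipid synthesis, was at 63.5, 47.7, 64.5 and 39.8 against 113, 118, 101 and 126 CPM (-1.09 log2 units). The other 6 were Rnase6 (-1.38), R3hcc1l (-1.34), Zfp518a (-1.31), Phtf2 (-1.22), Fam222b (-1.10) and Pias3 (-1.03), each in log2 units. R3hcc1l was low mainly in CC libraries 3 and 4, at 22.4, 23.2, 6.94 and 5.40 CPM over the CC libraries against 40.5, 29.1, 42.1 and 34.96 in Cb. None of the 10 kept the looser call in all 8 fits that lacked 1 library: Pias3 kept it in 7, Etnk1 in 6, Upk1b, Klf2 and Zfp518a in 3, R3hcc1l in 2 and the other 4 in 1. The adjusted p was highest without Cb library 4 for Upk1b (0.0891), Spns2 (0.0952), Klf2 (0.0919), Etnk1 (0.0598) and Rnase6 (0.172), without Cb library 2 for Pias3 (0.067) and Zfp518a (0.145), without Cb library 1 for Phtf2 (0.12) and without CC library 3 for R3hcc1l (0.125) and Fam222b (0.126). Without CC libraries 3 and 4 none of the 10 passed, with adjusted p from 0.066 (Klf2) to 0.37 (R3hcc1l). Their log2 fold changes there were -1.43 (Rnase6), -1.32 (Upk1b), -1.30 (Klf2), -1.23 (Zfp518a), -1.10 (Spns2), -1.05 (Etnk1), -1.03 (Phtf2), -0.95 (Pias3), -0.83 (Fam222b) and -0.69 (R3hcc1l).

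In the other direction, Pde2a, a phosphodiesterase that hydrolyses cyclic AMP and cyclic GMP, had the largest increase in CC among the 10 genes chosen in the same way. Its level was 22.5, 46.9, 44.5 and 37.96 CPM in CC and 5.43, 18.7, 5.24 and 4.18 CPM in Cb (2.18 ± 0.56 log2 units, edgeR adjusted p = 0.0432), and Cb library 2 stood above the other Cb libraries. Plin2, which coats lipid droplets, was at 221, 183, 291 and 192 against 121, 127, 131 and 101 CPM (0.88 ± 0.16 log2 units, edgeR adjusted p = 0.00352). Malat1, an abundant nuclear non-coding RNA, was at 1272, 997, 759.8 and 927 against 625, 522, 482 and 558 CPM (0.86 ± 0.20 log2 units, edgeR adjusted p = 0.0245). Ninj1, a membrane protein of adhesion and of lytic cell death, was at 187, 158, 160.4 and 183 against 90.4, 101, 121 and 95.4 CPM (0.76 log2 units). Sepw1, a selenoprotein, was at 86.7, 79.04, 83.7 and 76.9 against 44.5, 44.3, 49.96 and 50.6 CPM (0.79 log2 units). The rest were Angptl7 (1.28), Plxna4os1 (0.92), Gm44884 (0.81), Uap1l1 (0.70) and Ubxn6 (0.69), in log2 units. Plin2, Ninj1, Sepw1, Plxna4os1 and Gm44884 kept the looser call whichever library was left out, Malat1 and Ubxn6 in 4 of 8 cases, Pde2a and Uap1l1 in 2 and Angptl7 in 1. The adjusted p rose to 0.148 for Pde2a and 0.152 for Angptl7 without Cb library 4, to 0.0801 for Malat1 without CC library 1, to 0.112 for Uap1l1 without CC library 3 and to 0.102 for Ubxn6 without CC library 4. Without CC libraries 3 and 4, Malat1, Ninj1, Sepw1, Plxna4os1 and Gm44884 passed, and Plin2 (0.75 log2 units, adjusted p = 0.0596), Pde2a (2.04, adjusted p = 0.184), Angptl7 (1.41, 0.109), Uap1l1 (0.42, 0.378) and Ubxn6 (0.41, 0.37) did not. Plxna4os1 lies within Plxna4 on the opposite strand, so that its reads cannot be told apart from those of unspliced Plxna4 RNA, and antisense or overlapping genes share exon sequence with Spns2, Etnk1, R3hcc1l, Zfp518a, Pias3, Pde2a, Ubxn6 and Malat1. Genes past the looser limit differed in length by direction: the median exon length was 2084 bases for those higher and 4486 bases for those lower in CC, against 4011 over genes averaging 1 CPM or more, and the part of length in the calls was not tested.

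The identity genes of microglia were measured at high levels in both regions, with small differences. Of 22 homeostatic genes, 4 passed the looser limit, all lower in CC, against 1.49% of all genes and 2.47% of those averaging 1 CPM or more, and the median of the list was -0.13 log2 units. Csf1r, the receptor for the survival factors CSF1 and interleukin-34, was at 11957, 15251, 13604 and 14729.5 CPM in CC and 15870.0, 17288, 16291 and 16479.5 CPM in Cb (-0.25 ± 0.06 log2 units, edgeR adjusted p = 0.0463). Mef2a, a transcription factor of the microglial programme, was at 186, 188, 143 and 141 against 251, 293, 277 and 286 CPM (-0.75 ± 0.11 log2 units, edgeR adjusted p = 0.000335). Itgam, the CD11b used in the sort, was at 1054, 1385, 1176 and 1177 against 1893, 2070.2, 1801 and 2060.1 CPM (-0.71 ± 0.11 log2 units, edgeR adjusted p = 0.00057). Tgfbr1 was the fourth (-0.44 log2 units, edgeR adjusted p = 0.0471), and with Tgfbr2 (-0.38 log2 units, edgeR adjusted p = 0.0109) both chains of the TGF-beta receptor were lower in CC, the 2 of 32 TGF-beta and BMP genes past the looser limit, where 1.02% of all genes were lower. Cst3, which encodes the protease inhibitor cystatin C and is an abundant identity gene, had means of 20369 CPM in CC and 21761 CPM in Cb (edgeR adjusted p = 0.677). The calls for Csf1r and Tgfbr1 lay close to the limit, and Csf1r lost it in 15 of 20 alternative settings. With 1 library left out, Mef2a and Itgam kept the call in all 8 fits, Tgfbr2 in 6, and Csf1r and Tgfbr1 in 2, with an adjusted p of 0.217 for Csf1r without CC library 1 and of 0.199 and 0.0869 for Tgfbr1 and Tgfbr2 without Cb library 4. In the fit without CC libraries 3 and 4, Mef2a and Itgam passed, and Csf1r, Tgfbr1 and Tgfbr2 did not (-0.28, -0.45 and -0.37 log2 units, edgeR adjusted p = 0.14, 0.195 and 0.111). Ptprc, which encodes the CD45 of the sort, was also lower in CC (-0.53 log2 units, edgeR adjusted p = 0.0201), with the call kept in 2 of 8 such fits (adjusted p = 0.122 without Cb library 4), and how far the gate itself moves Itgam and Ptprc was not tested.

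Genes that the study names for primed white matter microglia and for phagocytosis did not pass between CC and Cb at P10. None of the 12 priming genes passed the looser limit in edgeR, with 2 at an unadjusted p under 0.05, 2 past the looser limit by limma-voom and 0 by DESeq2, and their median was -0.02 log2 units. Over all genes 1.49% passed in edgeR and 3344 of 20917 had an unadjusted p under 0.05, so that edgeR counts this low in 12 genes are near the background. By limma-voom 828 and by DESeq2 998 of all genes passed. Igf1, a growth factor, had 66.2, 62.1, 96.4 and 86.9 CPM in CC and 39.7, 40.5, 55.3 and 25.04 CPM in Cb (edgeR adjusted p = 0.257). Mrc1, the mannose receptor, had 185, 229, 138 and 202 against 115, 122, 107 and 138 CPM (edgeR adjusted p = 0.553). The lowest CC and the highest Cb library lay close together for Mrc1. With Gas7 these were the 3 priming genes whose libraries did not overlap, all with CC above, a pattern of 3.67% of all genes and 5.39% of those averaging 1 CPM or more. Spp1, which encodes osteopontin, ran from 53.9 to 500.5 CPM in CC and from 102 to 324 CPM in Cb, and Clec7a, the beta-glucan receptor dectin-1, from 52.7 to 101 and from 44.9 to 70.6 CPM. CC library 3 was the highest library of its group for Spp1, Clec7a, Anxa5, Lgals3 and Gpnmb. The 5 phagocytosis genes named in the study, Gsn, Cd36, Abca1, Grk6 and Scarb1, had a median of -0.02 log2 units, with 0 past the looser limit in edgeR, limma-voom or DESeq2 and 1 at an unadjusted p under 0.05.

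Of 37 tested genes of phagocytosis and clearance, 3 passed the looser limit, all lower in CC, against 1.49% of all genes and 2.47% of those averaging 1 CPM or more. Pros1, a bridging ligand of the TAM receptors, was at 722, 897, 871 and 911 CPM in CC and 1239.5, 1287, 1198 and 1315 CPM in Cb (-0.57 ± 0.10 log2 units, edgeR adjusted p = 0.00164). Itgb2, the beta chain that pairs with CD11b as complement receptor 3, was at 354, 333, 445 and 459.8 against 509, 598, 526 and 572 CPM (-0.47 ± 0.09 log2 units, edgeR adjusted p = 0.00352), so both chains of that receptor were lower in CC. The C1q genes did not pass, with C1qb at means of 9666 and 9427 CPM (edgeR adjusted p = 0.937). Among the complement genes, C4b was lower in CC, at 0.593, 0.246, 0 and 0.0577 against 8.09, 9.56, 4.92 and 7.95 CPM (edgeR adjusted p = 0.0474). C4b kept its call in 7 of 20 alternative settings and in none of the 8 that lacked 1 library (adjusted p up to 0.117, without CC library 4), whereas Pros1 and Itgb2 kept theirs in all 8. Pros1 and Itgb2 also passed without CC libraries 3 and 4, and C4b did not (-4.18 log2 units, edgeR adjusted p = 0.281).

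Of 30 lysosomal genes, 5 were lower in CC, where 1.02% of all genes were lower at this limit and 2.47% of those averaging 1 CPM or more passed in either direction, while the median of the list was 0.03 log2 units. Ctss, the cathepsin S that trims the invariant chain, was at 6316, 5941, 5677 and 7123 CPM in CC and 10222, 9182, 10184 and 9859.8 CPM in Cb (-0.65 ± 0.09 log2 units, edgeR adjusted p = 9.87e-05). Ctsc, cathepsin C, was at 644, 742, 929 and 858 against 1121, 1202, 1123 and 1234 CPM (-0.56 ± 0.10 log2 units, edgeR adjusted p = 0.00186). Ctsh (-0.43), the membrane protein Lamp2 (-0.41) and the sphingolipid activator precursor Psap (-0.62), in log2 units, were the other 3. Ctsh and Psap did not pass without Cb library 4 (adjusted p = 0.0738 and 0.0919) and kept the call in 6 and 5 of 8 fits, and the other 3 in all 8. Of the 5, 4 passed without CC libraries 3 and 4 and Psap did not (-0.66 log2 units, edgeR adjusted p = 0.113). Ctsd and Ctsb, other abundant cathepsin genes, did not pass, with means of 11197 and 10449 CPM in CC and 11310.3 and 9633 CPM in Cb (edgeR adjusted p = 0.994 and 0.36).

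Of 31 tested genes of lipid handling and sterol synthesis, Plin2 was higher and Hmgcs1 lower in CC, against 1.49% of all genes past the looser limit in either direction, and the median was 0. Apoe, the lipid carrier, had 17635, 15094, 16079.8 and 18264 CPM in CC and 10763, 10704, 12048 and 7874 CPM in Cb, without overlap, but did not pass the looser limit (0.70 ± 0.20 log2 units, edgeR adjusted p = 0.0801). It passed that limit in 3 of 20 alternative settings. Lpl, the lipoprotein lipase, and Lrp1 had means of 568 and 784 CPM in CC and 409.6 and 596 CPM in Cb (edgeR adjusted p = 0.185 and 0.252).

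Interferon response genes had a median of -0.45 log2 units over 35 tested members, 26 of them negative. None passed the looser limit in edgeR, with 10 at an unadjusted p under 0.05, 2 passing by limma-voom and 3 by DESeq2, and 7 did not overlap, all with CC below. Over all 20917 genes, 3344 had an unadjusted p under 0.05, and 4.12% (6.07% of those averaging 1 CPM or more) had CC below Cb without overlap. Of all genes, 1.49% passed in edgeR, 828 genes passed by limma-voom and 998 by DESeq2. The interferon list summed to 599, 517, 826 and 504 CPM in CC libraries 1 to 4 and to 767 to 828 CPM in Cb. CC library 3 thus lay at the Cb level. Of 18 class I and antigen processing genes, 0 passed in edgeR, 4 had an unadjusted p under 0.05, and 1 and 2 passed by limma-voom and DESeq2. B2m, the light chain of class I, had means of 2998 and 3591 CPM (edgeR adjusted p = 0.17), and H2-D1 of 577 and 764 CPM (edgeR adjusted p = 0.0815).

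Among 27 cytokine and inflammatory genes, 2 were lower in CC, against 1.02% of all genes lower at the looser limit. Il1a, an interleukin-1 ligand, was at 41.3, 51.5, 65.8 and 76.6 CPM in CC and 105, 124, 83.9 and 104 CPM in Cb (-0.83 ± 0.19 log2 units, edgeR adjusted p = 0.0214). Tlr4, the receptor for lipopolysaccharide, was at 75.2, 76.6, 89.6 and 105 against 183, 135, 135 and 149.9 CPM (-0.80 ± 0.19 log2 units, edgeR adjusted p = 0.0245). Both kept the call in 3 and 2 of the 8 fits that lacked 1 library, with an adjusted p of up to 0.109 without Cb library 2 and 0.105 without Cb library 1. Il1a passed without CC libraries 3 and 4 and Tlr4 did not (-0.99 log2 units, edgeR adjusted p = 0.054). In this list 8 members had every CC library below every Cb library, as did 4.12% of all genes and 6.07% of those averaging 1 CPM or more, and its median was -0.26 log2 units. Among the chemokine and receptor genes, Ccl6 was higher in CC (0.45 log2 units, edgeR adjusted p = 0.0199), and Cx3cr1, the fractalkine receptor, had means of 2727 and 2551 CPM (edgeR adjusted p = 0.411). Of 28 immediate early genes, which also respond to dissociation, Jund was higher (0.55 log2 units) and Klf2 and Klf6 (-0.45 log2 units) lower in CC, and Jun did not pass, at 0.13 log2 units. Tpi1 was the 1 of 24 glycolysis and hypoxia genes past the looser limit, higher by 0.48 log2 units. For the immediate early and the glycolysis counts, the share that passed was 1.49% over all genes and 2.47% over those averaging 1 CPM or more. Of the genes named from these 3 lists that passed, Ccl6 kept the call in 7 of 8 such fits, Tpi1 and Klf2 in 3, and Jund and Klf6 in 1, with the highest adjusted p at 0.0598 (Ccl6) and 0.0919 (Klf2) without Cb library 4, 0.108 (Klf6) without Cb library 1, 0.181 (Tpi1) without CC library 3 and 0.154 (Jund) without CC library 4. Ccl6 passed without CC libraries 3 and 4, and Klf2, Klf6, Jund and Tpi1 did not (edgeR adjusted p = 0.066, 0.0599, 0.316 and 0.453). Their log2 fold changes there were -1.30, -0.48, 0.43 and 0.26. Of 33 cell division genes, 0 passed in edgeR, 3 had an unadjusted p under 0.05, and 2 and 1 passed by limma-voom and DESeq2. Of all 20917 genes, 1.49% passed in edgeR, 3344 had an unadjusted p under 0.05, and 828 and 998 passed by limma-voom and DESeq2. Top2a had means of 139 and 141 CPM.

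**Figure D3:**
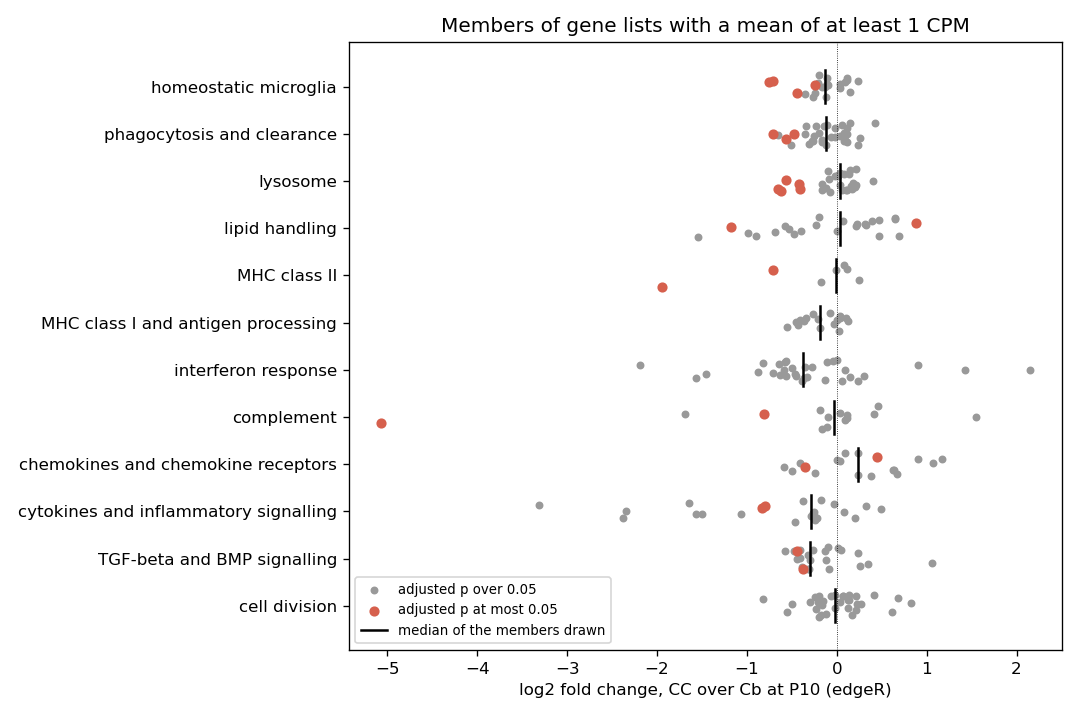
Log2 fold change of CC over Cb at P10 (horizontal axis) for each member averaging 1 CPM or more of 12 gene lists (rows), with red points past the looser limit and black bars for the median of the points drawn. The interferon, cytokine and TGF-beta lists have medians below 0 with most members grey, and the priming and named phagocytosis genes are not drawn.

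Marker sums of red cells and of choroid plexus were higher in every Cb than in every CC library, while those of most other cells overlapped between the regions. Border macrophage markers had the highest sums, given above, most of it from Gas6. Oligodendrocyte lineage markers summed to 163 to 306 CPM in CC and 236 to 266 CPM in Cb, with Cnp at means of 128 and 138 CPM and Mbp at 58.8 and 66.2 CPM. Astrocyte markers summed to 115 to 148 and 121 to 174 CPM, most of it from Slc1a3, and lymphocyte and mast cell markers to 136 to 182 and 132 to 149.5 CPM, nearly all of it from Cd79b. The telencephalic neuron list summed to 619 to 855 and 699 to 806 CPM, nearly all of it from Mef2c, which microglia also express. The summed level of 8 red cell genes was 13.4 to 22.8 CPM in CC and 115 to 142 CPM in Cb, and Hbb-bs, a beta globin, had 0.801, 0, 0.0596 and 2.40 CPM in CC and 63.7, 76.2, 65.1 and 71.6 CPM in Cb. None of the 8 passed the looser limit in edgeR, with 7 at an unadjusted p under 0.05, 7 passing by limma-voom and 5 by DESeq2. Of all 20917 genes, 3344 had an unadjusted p under 0.05, 1.49% passed in edgeR, 828 genes passed by limma-voom and 998 by DESeq2. Choroid plexus and ependymal markers summed to 0.0593 to 8.32 CPM in CC and 14.0 to 100.3 CPM in Cb, most of it from Ttr at 44.7, 70.5, 94.3 and 12.8 CPM in Cb. Of the marker lists for neurons and for cerebellar neurons, Snap25 at 0.415, 0, 0 and 0 CPM in CC and 2.06, 1.81, 4.25 and 0.620 CPM in Cb and Neurod1 at 0, 0, 0 and 0.0289 and 1.59, 4.38, 0.378 and 0.878 CPM passed the looser limit. Cspg4, of the oligodendrocyte lineage, passed in the other direction at 0.178, 0.706, 5.57 and 0 CPM in CC, most of it in CC library 3, against 0, 0, 0 and 0.0258 CPM in Cb. Neurod1 kept its call whichever library was left out, Snap25 in 2 of 8 cases and Cspg4 in 3, with an adjusted p of 0.0732 for Snap25 without Cb library 3 and 0.166 for Cspg4 without CC library 3. None of the 3 passed without CC libraries 3 and 4 (adjusted p = 0.099, 0.213 and 0.153). The summed level of monocyte markers was 11.5 to 19.3 CPM in CC and 15.2 to 25.7 CPM in Cb. The neutrophil list, in which the most abundant gene was Csf3r, summed to 185 to 232 and 215 to 262 CPM, with S100a8 and S100a9 at means of 0.392 and 0.315 CPM in Cb. The part of these cells in the differences above was not tested.

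**Figure D4:**
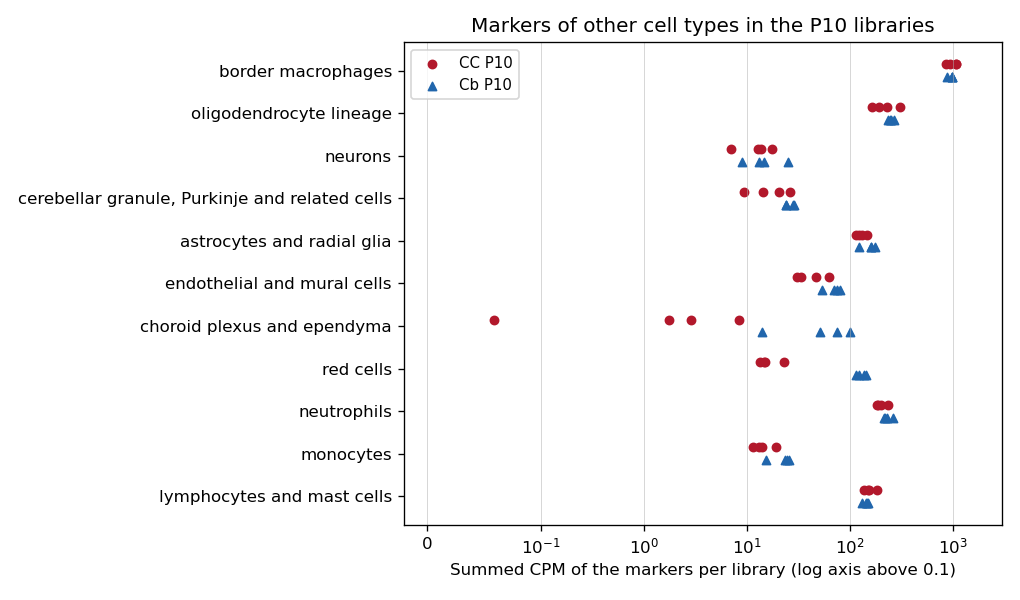
Summed CPM of the markers of other cell types (horizontal axis, logarithmic above 0.1) in each CC (red circles) and Cb (blue triangles) library of P10. Red cell and choroid plexus markers separate the regions, with Cb higher, and border macrophage markers, mostly Gas6, overlap.

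The P10 Cx libraries are given beside these genes as a description, since the genes were chosen for a CC to Cb difference and the CC libraries varied more. Of the 16 genes lower in CC past the stricter limit, the Cx mean was between the 2 regions and nearer Cb for 11, above both for 4 and below both for 1, which was Cd74 at 21.3, 12.3, 12.2 and 11.2 CPM in the Cx libraries. Of the 213 lower genes past the looser limit, the Cx mean was above both for 82, nearer Cb for 108, nearer CC for 20 and below both for 3. Of the 98 higher ones, it was below both for 52, nearer Cb for 38, nearer CC for 7 and above both for 1. Over all 5981 genes that averaged 1 CPM or more and had a negative log2 fold change, the Cx mean was above both for 47.7%, nearer Cb for 21.9%, nearer CC for 11.9% and below both for 18.5%, so that a place on the Cb side was the more frequent one there too. Over the 5412 such genes with a positive one, it was below both for 41.5%, nearer Cb for 21.3%, nearer CC for 13.7% and above both for 23.5%. Cd34 lay between, at 225, 225, 214 and 275 CPM in Cx. Pde2a lay below both, at 0.836, 1.68, 1.79 and 3.70 CPM, and so did Plin2, at 76.04, 76.04, 79.6 and 76.2 CPM.

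The CC to Cb differences at P10 were partly present at P7 and mostly absent from the calls at P42. Of the 17 genes, 5 also passed the stricter limit in the same direction at P7, where 0.0717% of genes passed and 0.0669% were lower in CC: Cd34 (-1.36 log2 units), Cd74 (-1.95), Spint1 (-2.31), Il7r (-3.36) and Ptprm (-2.56). The P7 libraries are separate from the P10 ones, with 3 in each region. At P42, where 0.421% passed and 0.316% were lower in CC, Zdhhc2 was lower in CC (-7.76 log2 units) and Gm44545 was lower too (-1.35 log2 units), the opposite of P10. The sign was that of P10 for 14 of the 17 genes at P7 and for 10 at P42. Cd34 was at 341 ± 39.5 CPM in CC and 579.7 ± 50.99 CPM in Cb at P42 (SD, n = 4), a smaller difference of -0.76 log2 units with an edgeR adjusted p of 0.000102.

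A change of the difference with age was tested as an interaction. Between P7 and P10 it passed the stricter limit for 2 genes of all those tested (0.00956%), Gm44545 and Malat1. Gm44545 went from -1.51 ± 0.31 log2 units at P7 to 1.35 ± 0.26 at P10, and Malat1 from -1.11 ± 0.23 to 0.86 ± 0.20 (changes of 2.86 and 1.96, edgeR adjusted p = 0.00197 and 0.00449). Without Cb library 3 of P10, or without CC library 3 of P7, 0 genes passed.

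Between P10 and P42 it passed for 26 genes (0.124%), among them 7 of the 17. For Hmgcs1 the sign turned, from -1.17 ± 0.18 at P10 to 0.77 ± 0.18 at P42 (edgeR adjusted p of the change = 0.000341): CC had 31.6 ± 7.62 CPM at P10 and 52.1 ± 8.85 CPM at P42, and Cb 71.2 ± 17.9 and 30.6 ± 6.77 CPM (SD, n = 4). Il7r moved from -2.08 to 0.47 log2 units, Ptprm from -2.14 to 0.14, Spint1 from -1.44 to -0.11 and Cnn2 from -1.004 to 0.42 (edgeR adjusted p of the change = 0.00782, 0.00378, 0.00992 and 0.00328). Mageh1 and Gm44545 were the other 2. Upk1b, past the looser limit at P10, had the opposite sign at P42, going from -1.44 ± 0.33 to 2.19 ± 0.33 log2 units (edgeR adjusted p of the change = 0.000316). Cb held 48.2 ± 10.8 CPM at P10 and 36.4 ± 12.1 CPM at P42, and CC 17.8 ± 5.19 and 166 ± 35.9 CPM. These tests use the same P10 libraries as the comparison itself.

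**Figure D5:**
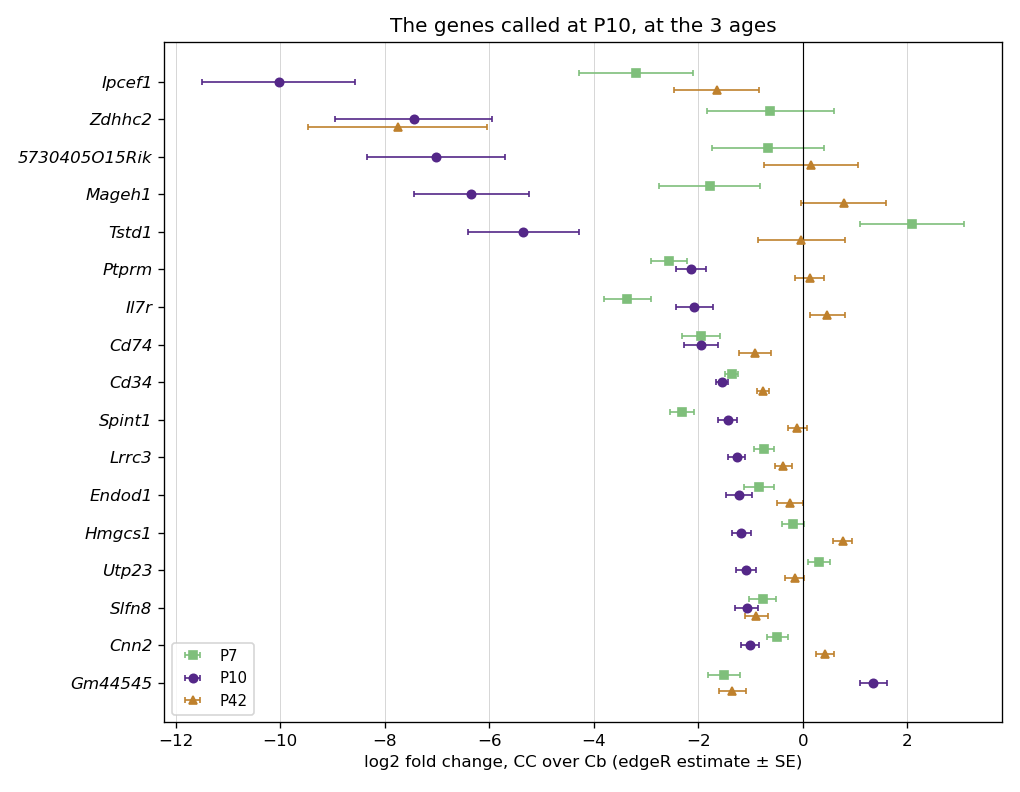
Log2 fold change of CC over Cb with its SE (horizontal axis) at P7 (green squares, 3 libraries a region), P10 (purple circles, 4) and P42 (brown triangles, 4) for the 17 genes called at P10. Cd34, Cd74, Spint1, Il7r and Ptprm lie well below 0 at both P7 and P10, most P42 points lie near 0, and Gm44545 is above 0 at P10 only.

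Within each sex, with 2 libraries a region, the 17 genes had the same sign in females and in males. Cd34 differed by -1.52 log2 units in females and -1.57 in males (edgeR adjusted p = 0.00077 and 0.000121), and the other 16 did not pass the stricter limit in either. A change of the difference with sex passed it for 8 genes of all those tested, none of them among the 17.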

How the data were processed

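RNA of sorted microglia was amplified with a SMARTer Ultra Low kit and tagmented with Nextera XT, which marks no strand. The deposited values are raw counts per gene: per the labels and the study's methods, the authors mapped reads to GRCm38 with STAR 2.5.2b and counted them with featureCounts 1.6.2, discarding multimapping and multi-overlapping reads, while the annotation and strand setting are not given in the sources used here. The table held 48587 genes and 92 spike-in sequences, which were left out. Exon length, the other deposited column used, was taken as the files give it.

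Genes without a read (17212) and the 10458 genes lowest by summed count (at most 26 counts over all libraries) were dropped, leaving 20917. Counts of all 33 libraries were fitted with 9 group coefficients in edgeR 4.0.16 (R 4.3.3; TMM factors, robust quasi-likelihood), and CC minus Cb was tested at P10, P7 and P42, with interactions between ages. SEs were taken from the log2 fold change and its F statistic. The fit pools the spread of all groups. Stricter calls needed an adjusted p of 0.01 and 1 log2 unit, looser calls an adjusted p of 0.05. Distances used log2 CPM with a prior count of 2. A count of 0 was given a limit of 3 counts per library, and count ratios a 95% interval. Tested on simulated P10 data over the 20917 genes, the fit recovered at the stricter limit 30 of 100 genes changed by 1 log2 unit and 68 of 100 changed by 2, with 0 false calls. The changed genes averaged 1 CPM or more, and all groups had the same spread for each gene. In the real libraries CC varied more than Cb, so these rates need not hold there.

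Genes were named by rule: all past the stricter limits; up to 10 per direction past the looser limit only, averaging 10 CPM or more and with the regions apart; the priming and phagocytosis genes that the study names; and of each list the members past the looser limit and up to 4 abundant ones. Insig1, Acly, P2ry6, Ptprc, Hbb-bs, Ttr, Apoe, Sqle and the genes of the closing observations were chosen after their values were seen. Some members of the lists are not reported here. The members and lists were chosen with earlier results of these data known. Positions of genes are those of the deposited table, overlaps come from GENCODE M21, and promoters from RefSeq. Alternatives were limma-voom 3.58.1, DESeq2 1.42.0, other scaling, filters, samples and covariates, and leaving out libraries.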

Additional observations from a re-analysis of the deposited data

Results flagged for a closer look

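In 8 of 106 groups of 4 libraries examined, 1 library stood apart from the other 3 by Dixon's limit, where chance gives about 1 in 20. Among the genes with almost no reads in CC, Zdhhc2 had 0.0298 CPM in CC library 3 and Tstd1 0.0297 CPM in CC library 1, each a single read with 0 in the other CC libraries. Il7r was low in Cb library 1, at 17.1 CPM against 34.9 to 37.0 in the others, and Lrrc3 in Cb library 3, at 63.6 against 84.5 to 88.7. Pde2a was high in Cb library 2, at 18.7 CPM against 4.18 to 5.43, and Angptl7 in CC library 2, at 20.4 against 14.8 to 15.4. Of the priming genes, Lgals3 was high in Cb library 3, at 6.95 CPM against 3.44 to 4.03, and F13a1 in CC library 2, at 5.43 against 0 to 0.0298.

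The CC to Cb difference changed with age for 9 of the genes past either limit at P10 that are named above (interaction term, edgeR adjusted p at most 0.01). From P7 to P10 it changed by 2.86 log2 units for Gm44545 and by 1.96 for Malat1. From P10 to P42 it changed by -2.70 log2 units for Gm44545, 3.62 for Upk1b, 1.94 for Hmgcs1, 1.42 for Cnn2, 2.28 for Ptprm, 2.55 for Il7r, 1.33 for Spint1 and 7.13 for Mageh1. Pecam1, an endothelial marker, and Serpinf1, which did not pass at P10, changed by 2.61 and 1.12. The value for Mageh1 is fitted with almost no reads in CC at P10.

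Reads of spike-in sequences, which enter no comparison, numbered 7 to 23 in the 8 libraries, with 23 in CC library 3.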

How the results depend on the processing

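All 17 genes kept their sign in the 20 alternative settings run on them, and none of the named genes that passed changed sign. Cd34 passed in all 20, Spint1, Lrrc3, Ptprm and Cd74 in 17, Ipcef1 and Mageh1 in 16, and Gm44545 in 7. The number past the stricter limit, 17, became 89 by limma-voom (6 higher in CC), 187 by DESeq2 (45 higher), 91 with no limit on the fold change, 2 in a fit of the 8 libraries alone, 1 in females and 35 in males. The fit of the 8 libraries alone holds fewer libraries. The counts by sex come from a fit of all 33 libraries and compare 2 libraries a region. The cause of these counts was not tested. On simulated P10 data limma-voom made 3 and DESeq2 19 false calls at this limit. That simulation gave all groups the same spread for each gene, whereas CC varied more than Cb here. It therefore does not say how many calls in the real libraries are false. The 311 genes past the looser limit became 828 (270 higher), 998 (431 higher), 51, 27 and 154 in the same settings. Without CC libraries 3 and 4, an alternative chosen after the data were seen, the counts were 7 and 111.

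Fits that lacked 1 library gave 10 to 30 genes at the stricter limit. It was 10 without Cb library 2, 11 without Cb library 4 and 30 without CC library 2. At the looser limit the range was 107 to 408, with 107 without Cb library 4, 134 without Cb 2, 168 without Cb 1 and 204 without CC 3. The distance ratio ranged from 1.00 to 1.35, and was 1.31 without CC libraries 3 and 4 (exact permutation p = 0.0667, the smallest it allows).

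With the replicate block the stricter count was 15, of which 13 were among the 17, and the looser 228. Libraries of the same number correlated at 0.0168 to 0.0303 and others at -0.0389 to 0.0117, and every library correlated best with its own number, a hint from the data and not from the design, so the numbers were not taken as pairs.

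Of the 17, the 5 also called at P7 were 4 to 5 without 1 library. The 2 called at P42 were 1 by limma-voom, without the filter, with sex as a covariate and with the replicate block, and 0 to 2 without 1 library (0 without CC library 1, Cb 2 or Cb 3 of P42). The 2 changes from P7 to P10 were 13 by limma-voom, 71 by DESeq2 and 0 to 3 without 1 library. The 26 from P10 to P42 were 42, 269 and 15 to 39, with 15 and 17 without Cb libraries 4 and 2 of P10 and 17 without Cb library 2 of P42. Counts of list members past the looser limit stayed within 1.5 times in 237 of 348 list settings, and list medians within the spread between libraries in 263. Depth limits the genes under about 0.1 CPM, near the 0.0523 to 0.0921 CPM that 3 counts are worth in the 8 libraries.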

Other observations

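Abundant genes past the looser limit (mean of at least 100 CPM) that the lists above do not hold, picked after their values were seen, were looked at by kind. Gpr183, the receptor for oxysterols that guides immune cell migration, was lower in CC at 171, 234, 193 and 239 CPM against 354, 334, 359.8 and 346 CPM in Cb (-0.73 ± 0.08 log2 units, edgeR adjusted p = 3.86e-06). The next 4 genes, of which the first 3 encode lysosomal hydrolases, were picked from those lower in CC and say nothing of lysosomal genes in general. Arsb, the sulfatase for dermatan sulfate, was at 386, 481, 414 and 495 against 758, 827, 768 and 900.4 CPM (-0.87 ± 0.12 log2 units, edgeR adjusted p = 0.000104). Naaa, the acid amidase for palmitoylethanolamide, was at 88.3, 112, 78.7 and 101 against 188, 169.9, 187 and 188 CPM (-0.95 log2 units), Man2b1, the alpha-mannosidase, at 1806, 2208, 2089 and 2168 against 2677, 2766, 2849 and 2788 CPM (-0.42 log2 units), and Ifi30, a thiol reductase of antigen processing, at 101, 102, 102 and 98.9 against 153, 154, 174 and 167 CPM (-0.68 log2 units). Lcp1, the actin bundler L-plastin, differed by -0.60 log2 units (edgeR adjusted p = 0.000144). Without CC libraries 3 and 4 all but Naaa (-0.87 log2 units, edgeR adjusted p = 0.0565) passed the looser limit.

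Higher in CC were Pkig, an inhibitor of protein kinase A, at 216, 195, 224 and 211 against 132, 134, 139 and 142 CPM (0.63 ± 0.09 log2 units, edgeR adjusted p = 0.000329), Cd300a, an inhibitory receptor for phosphatidylserine, at 499, 514, 462 and 556 against 362, 335, 371 and 324 CPM (0.55 log2 units), and Sepp1, the secreted selenoprotein P, at 7477, 7075, 6527 and 7741 against 5771, 5958, 5807 and 5154 CPM (0.34 log2 units). Sepp1 differed in the same direction at P7, by 0.77 log2 units (edgeR adjusted p = 4.69e-07). Gpr183 did not pass at P7, with 0.02 log2 units (edgeR adjusted p = 1). Pkig, Cd300a and Sepp1 passed the looser limit without CC libraries 3 and 4.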
